A study of Mus musculus with 6 samples.

Results

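A set of 8 genes of the muscle fiber surface membrane, the sarcolemma, were examined in soleus (Sol) muscle of mice after voluntary wheel running (VWR). They were chosen as a set by what they encode, with earlier results of these data known but with no measured value in the rule, and all 8 were found among the 24411 genes of the count table and among the 12828 genes with enough counts to test. They encode the muscle sodium channel (Scn4a), the muscle chloride channel (Clcn1), an inward rectifier potassium channel (Kcnj2), the pore and the regulatory subunit of the ATP-sensitive potassium (KATP) channel (Kcnj11 and Abcc9), a voltage-gated potassium channel (Kcna7), and a pair of beta subunits of the sodium pump (Atp1b1 and Atp1b2).

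Polyadenylated RNA was sequenced from 3 WT and 3 LSD1-mKO mice, with 1 library per mouse, and the question was which genes differ when muscle fibers lack LSD1, a histone demethylase encoded by Kdm1a, in mice that run. LSD1-mKO mice were C57BL/6 mice homozygous for a floxed Lsd1 allele that carried ACTA1-CreERT2, a tamoxifen-inducible Cre driven by the human ACTA1 promoter in skeletal muscle fibers, so other cells of the muscle keep LSD1. WT mice carried the floxed allele without CreERT2, so both groups share that allele. Mice were 8 weeks old at the start and had a running wheel for 38 days. These days began with 3 to get used to the wheel, followed by 5 days of tamoxifen at 75 mg/kg. The series holds no sedentary mice, so no value here is an effect of running.

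The resting fiber is held near the potassium equilibrium by inward rectifier channels and, in skeletal muscle above all, by a large chloride conductance through ClC-1. An action potential opens the sodium channel NaV1.4, potassium channels repolarize the membrane, and the sodium pump (Na+/K+-ATPase) restores both gradients at the cost of ATP. The pump consists of a catalytic alpha subunit, a beta subunit that brings it to the membrane, and a small FXYD regulator. KATP channels open when ATP falls and reduce excitability in a fiber under metabolic stress. Mutations of the human counterparts of Scn4a, Clcn1 and Kcnj2 cause periodic paralysis or myotonia, which are disorders of muscle excitability.

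The targeted gene was checked first. Kdm1a was at 40.5, 38.2 and 33.6 CPM, the counts per 1000000 counts of a library scaled by the trimmed mean of M values (TMM), in the WT mice and at 14.6, 16.6 and 16.6 in the LSD1-mKO mice. It was lower in every LSD1-mKO mouse (log2 fold change -1.23, SE 0.11, edgeR adjusted p = 0.0160). The adjusted p was between 0.111 and 0.209 without WT replicate 2 or without any single LSD1-mKO mouse, with a log2 fold change of at most -1.17. The slow myosin Myh7 averaged 13827 CPM in WT and 13360 CPM in LSD1-mKO mice and the fast oxidative myosin Myh2 21727 and 18289 CPM. The fast myosin Myh1 was at 4037 and 4559 CPM and the fast glycolytic myosin Myh4 at 25.2 and 19.5 CPM. Myosins of slow and fast oxidative fibers were thus the most abundant of these, as in Sol muscle. Of 10 slow fiber genes 8 had a fold change above 0, and of 13 fast fiber genes 4, beside 45.2% of all genes. None passed the edgeR test. The fast fiber gene Actn3 averaged 118 and 334 CPM (edgeR adjusted p = 0.636). Their part in the levels of the 8 genes was not tested. Library totals ran from 8940206 to 10989846 estimated counts in WT and from 10984664 to 13798059 in LSD1-mKO mice. Summed markers of other cells varied between mice of both groups, to an extent that differed by cell type. Over all mice the Schwann cell markers ran only from 148 to 176 CPM and the adipocyte markers from 422 to 505 CPM. The 5 fibroblast markers were at 943, 2593 and 3054 CPM in the WT mice and at 2033, 1096 and 1187 CPM in the LSD1-mKO mice, and 5 leukocyte markers at 35.4 to 129 and 40.4 to 88.2 CPM. All 5 fibroblast and all 5 leukocyte markers had a fold change below 0, and none passed the edgeR test. In bulk muscle, fewer cells of a type and less RNA per cell cannot be told apart.

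The DNA just before the start sites is shown to place the genes and the motif matches described after it. Promoter windows from RefSeq (GRCm38.p6) matched 6 of the 8 genes, and 4 of these have bases that lie before both the RefSeq start and the start in GENCODE vM21. They are printed 5′ to 3′ on the strand of the gene, with capitals for each match to an E-box (CANNTG, the motif of MyoD family factors) or to the MEF2 motif. The positions are chr6:42286435-42286684, plus strand, for Clcn1, chr11:111065914-111066163, plus strand, for Kcnj2, chr6:142702316-142702524, minus strand, for Abcc9, and chr1:164458356-164458605, minus strand, for Atp1b1.
Clcn1: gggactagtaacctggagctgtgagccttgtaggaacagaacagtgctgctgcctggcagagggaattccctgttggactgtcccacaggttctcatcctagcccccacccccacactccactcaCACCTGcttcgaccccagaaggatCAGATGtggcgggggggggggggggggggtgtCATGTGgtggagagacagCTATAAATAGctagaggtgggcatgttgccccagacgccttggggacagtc
Kcnj2: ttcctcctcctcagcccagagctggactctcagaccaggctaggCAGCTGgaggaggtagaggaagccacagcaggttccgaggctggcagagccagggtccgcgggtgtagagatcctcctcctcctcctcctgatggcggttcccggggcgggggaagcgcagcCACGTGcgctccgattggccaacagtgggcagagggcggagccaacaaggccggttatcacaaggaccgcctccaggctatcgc
Abcc9: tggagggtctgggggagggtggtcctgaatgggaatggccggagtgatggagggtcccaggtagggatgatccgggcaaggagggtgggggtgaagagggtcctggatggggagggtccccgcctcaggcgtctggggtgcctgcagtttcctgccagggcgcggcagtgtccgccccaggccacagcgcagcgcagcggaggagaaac
Atp1b1: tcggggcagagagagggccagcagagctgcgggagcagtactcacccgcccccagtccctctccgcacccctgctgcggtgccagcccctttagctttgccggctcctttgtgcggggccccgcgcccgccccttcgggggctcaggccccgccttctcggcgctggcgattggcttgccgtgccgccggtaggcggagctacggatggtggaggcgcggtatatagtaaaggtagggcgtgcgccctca

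In the 250 bases before the RefSeq start, searched on both strands, Clcn1 had 3 E-boxes and a MEF2 motif at -51 to -42 that overlaps a TATA box (TATAAA) at -50 to -45. Kcnj2 had 2 E-boxes, CAGCTG and CACGTG, both of them palindromes. Abcc9 had 1 E-box at -27 to -22, which lies past the GENCODE start and so outside the printed bases, and Kcna7 had 3. No match was found in the windows of Scn4a and Atp1b1. The RefSeq starts of Scn4a and Kcna7 lie 3898 and 307 bases past the GENCODE start, so their windows were not printed. None of the 6 windows held the half-site of estrogen-related receptors (AAGGTCA) or a CArG box, the motif of serum response factor. Over the windows of 27025 genes, 66.0% held an E-box, 13.0% a TATA box, 4.05% the AAGGTCA half-site, 3.01% a MEF2 motif and 1.40% a CArG box, so the E-box is common in any window and the MEF2 motif in that of Clcn1 is rarer. A match is a string of letters and not a binding site.

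Transcript levels of the 8 genes spanned a wide range in Sol muscle. Per transcript length (TPM, the counts per base of transcript scaled to the same total in each library, mean of 6 mice), Atp1b1 was highest at 565, followed by Kcna7 at 229, Scn4a at 97.8, Abcc9 at 86.1, Kcnj11 at 72.5, Clcn1 at 51.1, Kcnj2 at 40.8 and Atp1b2 at 23.3. Atp1b1 ranked 264 among all genes by TPM. The ranges over mice were separate between Atp1b1 and Kcna7, between Kcna7 and Scn4a, and between Kcnj2 and Atp1b2. They overlapped between each other pair of neighbours in this order, although the higher gene of the pair was higher within 6 of 6 mice, or 5 of 6 for Clcn1 over Kcnj2. The last of these depends on the length used, since over all exon bases of a gene Kcnj2 was at 57.5 TPM and Clcn1 at 47.0 TPM.

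**Figure D1:**
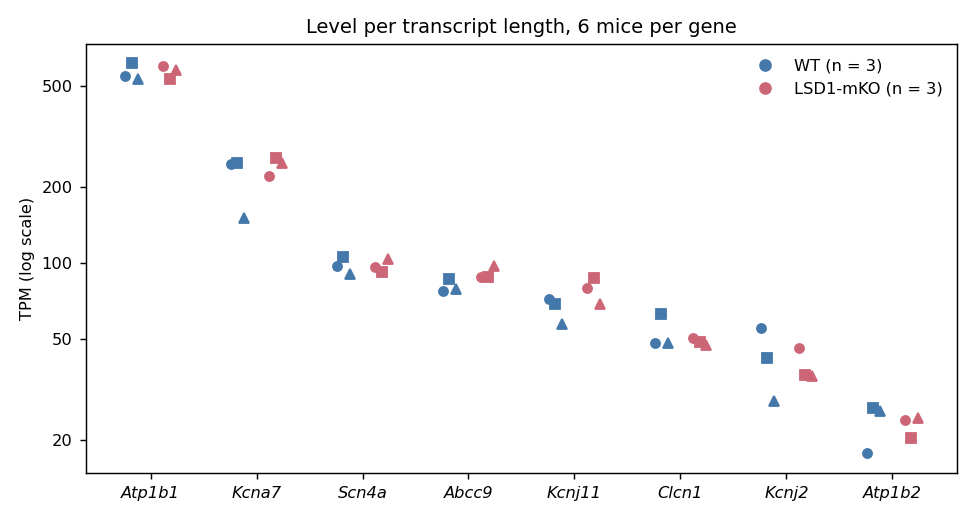
TPM of the 8 genes (log scale) in each mouse, with WT in blue and LSD1-mKO in red, and circles, squares and triangles for replicates 1, 2 and 3. Means fall from 565 TPM for Atp1b1 to 23.3 TPM for Atp1b2, and the spread over the 6 mice of a gene is small beside the distance between the highest and lowest genes.

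None of the 8 genes passed the edgeR quasi-likelihood test between LSD1-mKO and WT mice, in which 0.0156% of all genes passed an adjusted p under 0.05 (2 of 12828, Kdm1a among them). By unadjusted p under 0.05, again 0 of 8 passed, beside 6.40% of all genes. By DESeq2, 0 of 8 passed, beside 0.327% of all genes. The median log2 fold change of the 8 was 0.013, beside -0.020 over all genes tested, with 5 above 0, where 45.2% of all genes were, and 3 below. For 1 of the 8 genes WT and LSD1-mKO mice were fully apart, and it was higher in LSD1-mKO mice, beside 12.7% of all genes in either direction, 6.62% higher and 6.10% lower. The 95% intervals of the fold changes ran as low as 0.629 for Kcnj2 and as high as 1.54 for Kcna7, and those of the other genes lay between these values. The intervals are widest for Kcnj2 and Kcna7 and narrowest for Abcc9.

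**Figure D2:**
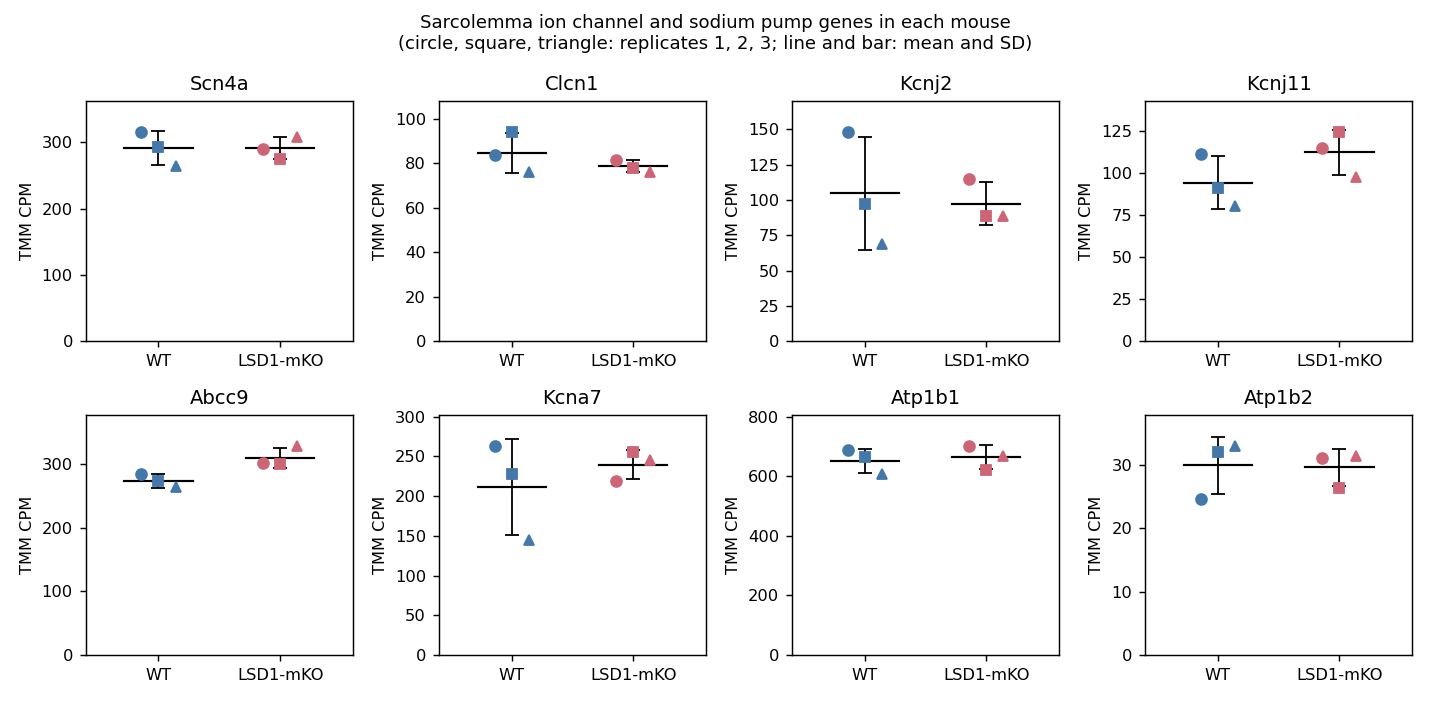
TMM CPM of each gene in the 3 WT (blue) and 3 LSD1-mKO (red) mice, with the axis from 0 and circles, squares and triangles for replicates 1, 2 and 3. Lines are means and bars SD, and only for Abcc9 do the 3 LSD1-mKO mice all lie above the 3 WT mice.

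The channels that start the action potential and set the resting conductance differed between groups by less than the spread between mice. Scn4a, on chr11:106318592-106353288 (GRCm38, as all gene positions here), encodes the pore of NaV1.4. It was at 315.6, 293.9 and 264.6 CPM in WT and at 290.5, 275.4 and 308.7 CPM in LSD1-mKO mice. The groups overlapped throughout, and the group means were 291.3 ± 25.6 and 291.5 ± 16.7 CPM (SD, n = 3 each). The log2 fold change was 0.0011 with a 95% interval from -0.22 to 0.22 (edgeR adjusted p = 0.999).

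Clcn1, on chr6:42286685-42315756, encodes ClC-1, the channel behind most of the resting chloride conductance. It was at 83.7, 94.0 and 76.0 CPM in WT and at 81.5, 78.0 and 76.3 CPM in LSD1-mKO mice. The LSD1-mKO mice lay within the WT range and close together, and the log2 fold change was -0.10 (95% interval -0.33 to 0.12, edgeR adjusted p = 0.868). It was -0.020 without WT replicate 2 and -0.18 without WT replicate 3. Of its exon bases, 445 are shared with Fam131b on the opposite strand, which was at 8.73 to 10.8 CPM, and counting is not stated to use strand, so reads there cannot be told apart. The ratio of Clcn1 to Scn4a within a mouse, on the TPM scale, averaged 0.541 ± 0.051 in WT and 0.503 ± 0.038 in LSD1-mKO mice (SD, n = 3 each). The difference was within the spread between mice (exact permutation test of the log2 ratio, 2-sided p = 0.4, 0.9 after adjustment over the 3 ratios tested), in a design whose smallest p is 0.1.

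Kcnj2, on chr11:111066164-111076821, encodes Kir2.1, an inward rectifier that stabilizes the resting potential. It was at 148.0, 97.1 and 68.9 CPM in WT and at 115.0, 89.0 and 88.3 CPM in LSD1-mKO mice. It was the most variable of the 8 genes, with the highest mouse 2.15 times the lowest, both of them WT, and its spread within groups was above that of 92.6% of all genes tested. The log2 fold change was -0.10 (95% interval -0.67 to 0.47, edgeR adjusted p = 0.953), and it was 0.23 without WT replicate 1, so a single mouse set its sign. The related Kcnj12, which encodes Kir2.2, had a similar share of the TPM of the family. Kcnj2 made up 46.2 ± 10.5% in WT and 46.3 ± 3.64% in LSD1-mKO mice and Kcnj12 53.1 ± 10.5% and 52.9 ± 3.68% (SD, n = 3 each).

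Kcna7, on chr7:45405653-45409763, encodes Kv1.7, a voltage-gated potassium channel found in muscle. It was at 263.2, 227.7 and 145.2 CPM in WT and at 219.2, 255.2 and 244.9 CPM in LSD1-mKO mice. WT replicate 3 stood below all other mice, and the other WT mice lay among or above the LSD1-mKO mice. The log2 fold change was 0.18 (95% interval -0.27 to 0.62, edgeR adjusted p = 0.884) and became -0.03 without WT replicate 3. That mouse also had the highest summed level of 9 denervation genes, 440.5 CPM against 224 to 307 CPM in the other 5 mice. The embryonic myosin Myh3 made up 243 CPM of that sum, while the acetylcholine receptor subunits Chrna1 (46.9 CPM) and Chrnd (8.35 CPM) were lowest in the same mouse. The part of these in the Kcna7 level was not tested.

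Both KATP channel genes were on average higher in LSD1-mKO mice, without passing the test. Abcc9, on chr6:142587862-142702315, encodes SUR2, the regulatory subunit that senses nucleotides. It was at 284.8, 272.7 and 263.0 CPM in WT and at 300.7, 299.2 and 328.2 CPM in LSD1-mKO mice. Every LSD1-mKO mouse was above every WT mouse. The means were 273.5 ± 10.9 and 309.4 ± 16.3 CPM (SD, n = 3 each), a log2 fold change of 0.18 (SE 0.085, 95% interval -0.018 to 0.37, edgeR adjusted p = 0.766). The 2-sided exact permutation p was 0.1, the smallest that 3 against 3 mice allow. An antisense gene, 5330439B14Rik, shares 158 exon bases with Abcc9 and was at no more than 0.385 CPM. Abcc9 is also expressed by mural cells of vessels, and 8 mural markers summed to 607 to 765 CPM in WT and 664 to 737 CPM in LSD1-mKO mice, ranges that overlap, and their part in the Abcc9 level was not tested.

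Kcnj11, on chr7:46093953-46100764, encodes Kir6.2, the pore of the fiber's KATP channel. It was at 111.2, 90.8 and 80.3 CPM in WT and at 114.7, 124.1 and 97.4 CPM in LSD1-mKO mice. The highest WT mouse lay among the LSD1-mKO mice, and the log2 fold change was 0.25 (SE 0.14, 95% interval -0.06 to 0.57, edgeR adjusted p = 0.777). Without WT replicate 1 the unadjusted edgeR p of both Kcnj11 and Abcc9 was under 0.05, while their adjusted p were 0.245 and 0.315. In that setting 841 of all 13079 genes tested were higher and 1044 lower at this threshold. With all mice these were 452 and 369 of 12828 genes. The ratio of Kcnj11 to Abcc9 within a mouse, on the TPM scale, ranged from 0.708 to 0.990 over all 6 mice and its difference between groups was within the spread between mice (exact permutation test, 2-sided p = 0.8, adjusted p = 0.9).

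Each KATP gene has a relative next to it in the genome. Kcnj8, which encodes the vascular pore Kir6.1, lies 16247 bases from Abcc9, and Abcc8, which encodes SUR1 of pancreatic beta cells and neurons, lies 3758 bases from Kcnj11. Kcnj11 made up 66.2 ± 5.62% of the summed TPM of Kcnj11 and Kcnj8 in WT and 70.1 ± 2.03% in LSD1-mKO mice (SD, n = 3 each), so the muscle pore was the more abundant in both. Kcnj8 itself was at 38.6 CPM on average in each group (log2 fold change -0.0025, edgeR adjusted p = 0.997). Abcc9 made up 99.3% and 99.0% of the TPM of the regulatory pair. The rest was Abcc8, which was at 0.900 to 1.57 CPM in WT and 1.92 to 2.14 CPM in LSD1-mKO mice, that is 10 to 13 and 23 to 28 estimated counts per library. Its log2 fold change was 0.77 (SE 0.30, edgeR adjusted p = 0.729), which did not pass the test.

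For the beta subunits of the sodium pump, both fold changes were near 0. Atp1b1, on chr1:164437109-164458355, encodes the main beta subunit, beta1. It was at 686.8, 663.9 and 608.2 CPM in WT and at 701.9, 621.4 and 669.6 CPM in LSD1-mKO mice. The groups overlapped, and the log2 fold change was 0.025 (95% interval -0.20 to 0.25, edgeR adjusted p = 0.969). It shares 575 exon bases with Nme7 on the opposite strand, which was at no more than 3.16 CPM.

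Atp1b2, on chr11:69599736-69605942, encodes beta2, which in skeletal muscle is the beta subunit of fast glycolytic fibers. It was at 24.7, 32.1 and 33.0 CPM in WT and at 31.1, 26.3 and 31.5 CPM in LSD1-mKO mice. The LSD1-mKO mice lay within the WT range, and the log2 fold change was -0.02 (95% interval -0.32 to 0.28, edgeR adjusted p = 0.980). On the TPM scale Atp1b1 was 24.5 times Atp1b2 in WT and 24.7 times in LSD1-mKO mice, and the log2 ratio did not differ beyond the spread between mice (exact permutation test, 2-sided p = 0.9, adjusted p = 0.9). Of the TPM of all 4 beta subunit genes, Atp1b1 held 84.6 ± 1.56% in WT and 84.9 ± 0.16% in LSD1-mKO mice (SD, n = 3 each). Atp1b3 held 10.6% and 10.3%, Atp1b2 3.54% and 3.44%, and Atp1b4 1.27% in each group.

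Of the other genes of the pump, Atp1b3 was at 62.8 to 63.6 CPM in WT and 57.5 to 66.9 CPM in LSD1-mKO mice (log2 fold change -0.014, edgeR adjusted p = 0.979), and Atp1b4 was at 9.04 to 19.7 and 12.5 to 18.5 CPM (log2 fold change 0.023, edgeR adjusted p = 0.989). Fxyd1, which encodes phospholemman, the pump regulator of muscle, had group means of 241.8 and 247.5 CPM (log2 fold change 0.034, edgeR adjusted p = 0.956). Fxyd6, another pump regulator, was at 308.7, 258.1 and 232.4 CPM in WT and at 373.6, 324.7 and 350.0 CPM in LSD1-mKO mice. The groups did not overlap, and the log2 fold change was 0.39 (SE 0.12, edgeR adjusted p = 0.619). With any single mouse left out its log2 fold change ran from 0.30 to 0.51. Its sign there adds nothing, since groups that do not overlap keep their order when a mouse is left out. The other 3 FXYD genes tested, all at 13.0 CPM or less in every mouse, had log2 fold changes below 0, with -0.35 for Fxyd2, -0.22 for Fxyd5 and -0.07 for Fxyd7 (edgeR adjusted p = 0.918, 0.866 and 0.972).

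**Figure D3:**
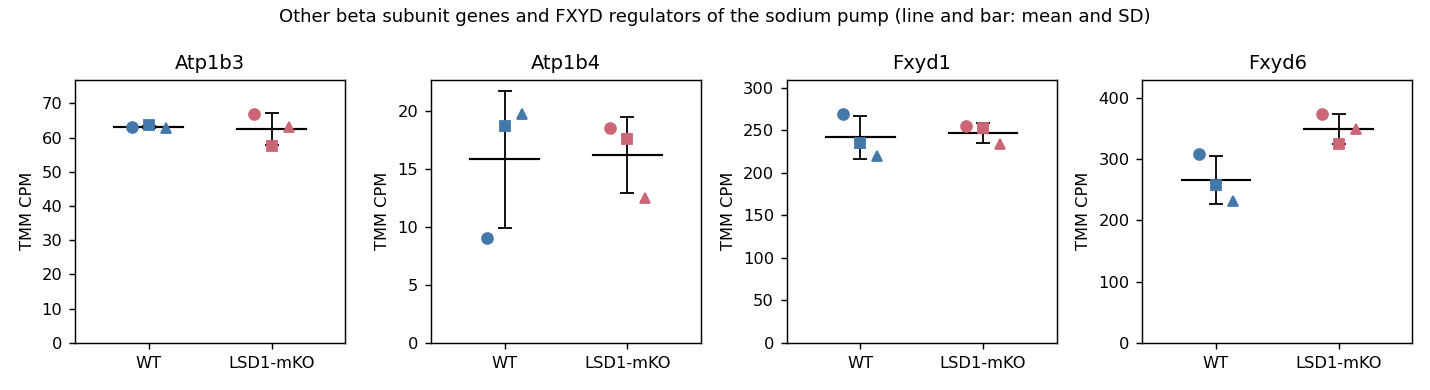
TMM CPM of the other 2 beta subunit genes tested and of 2 FXYD regulators in the 3 WT (blue) and 3 LSD1-mKO (red) mice, with the axis from 0, lines for means and bars for SD. Atp1b3, Atp1b4 and Fxyd1 overlap between groups, while Fxyd6 is higher in all 3 LSD1-mKO mice with an adjusted p of 0.619.

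The other ion transport genes of the muscle surface, a list of 41 from channel, pump and cotransporter families, held no gene past the test either. Of these, 33 had enough counts to test and 0 passed the adjusted p by edgeR in either direction. By unadjusted p under 0.05, 2 were higher in LSD1-mKO mice (Abcc8 and Fxyd6, beside 3.52% of all genes) and 0 were lower (beside 2.88%). Abcc8 and Fxyd6 were also the 2 genes of the 33 whose groups did not overlap, beside 12.7% of all genes in either direction. The median log2 fold change of the 33 was 0.025. After Abcc8 and Fxyd6, the lowest unadjusted p among genes that were higher belonged to the cotransporter Slc12a2 (0.29) and the calcium-activated channel Kcnn3 (0.37), both with an edgeR adjusted p of 0.766. Among genes that were lower they belonged to the sodium channel beta subunits Scn2b (-0.35) and Scn3b (-0.28), to Fxyd5 and to the chloride channel Clcn2 (-0.21), with edgeR adjusted p from 0.824 to 0.881 and each of these 3 channel genes at 9.99 CPM or less in every mouse. By family, 10 voltage-gated potassium channel genes were tested and ran from -0.21 to 0.33, and 3 calcium-activated potassium channel genes ran from 0.24 to 0.37, while 3 sodium channel subunit genes ran from -0.35 to 0.02 and 5 FXYD genes from -0.35 to 0.39, with no gene but Fxyd6 at an unadjusted p under 0.05.

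**Figure D4:**
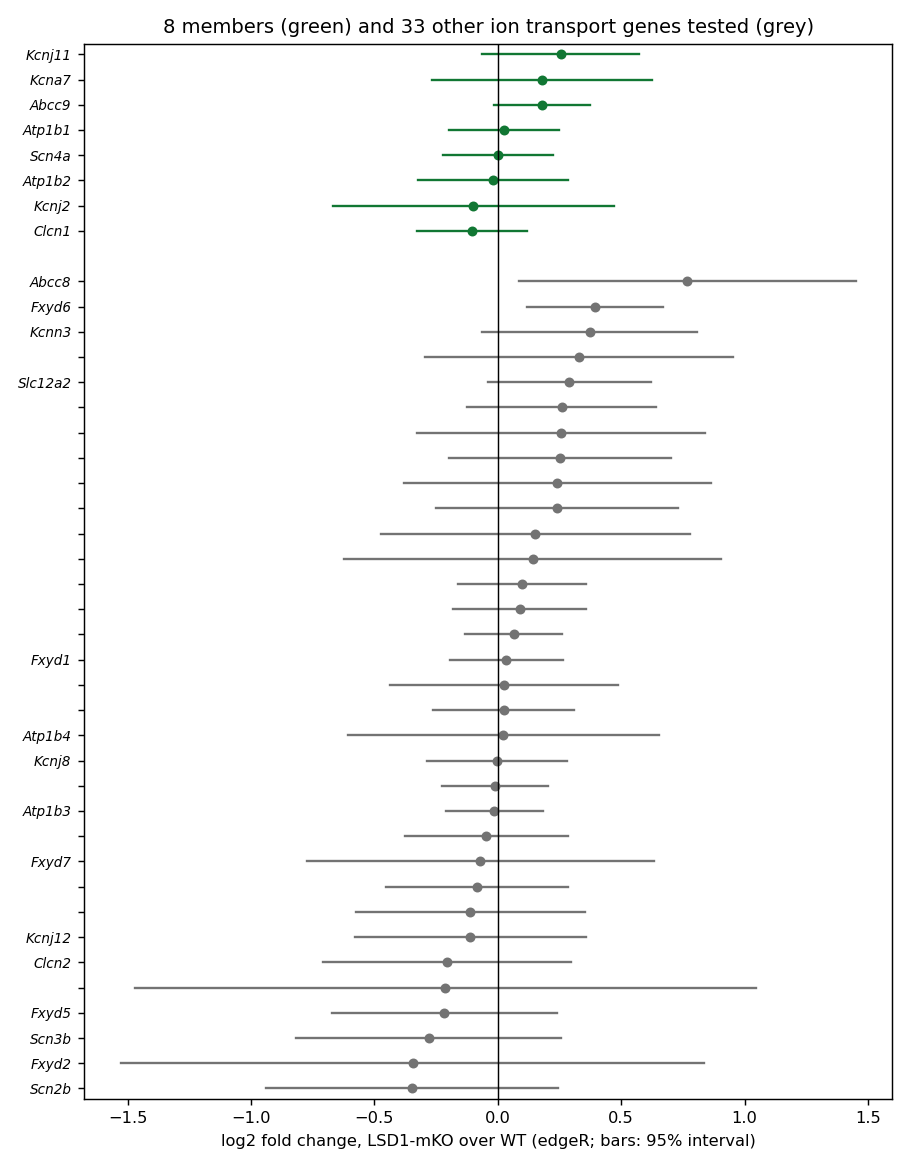
log2 fold change of LSD1-mKO over WT, with 95% intervals, for the 8 genes (green) and the 33 other ion transport genes tested (grey, with names for those described in the text). All 8 green intervals include 0, and of the grey ones those of Abcc8 and Fxyd6 lie above 0.

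Which mouse was lowest depended in part on the scale. By TMM CPM, WT replicate 3 was the lowest of the 6 mice for 7 of the 8 genes, all but Atp1b2, for which it was the highest, whereas by TPM it was the lowest for 5 (Scn4a, Kcnj2, Kcnj11, Kcna7 and Atp1b1) and the highest for none. Over the 8485 genes with a mean of at least 10 CPM, that mouse was lowest by TMM CPM for 19.6%. WT replicate 1 was highest by TMM CPM for 3 of the 8 genes (Scn4a, Kcnj2 and Kcna7), beside 28.8% of those 8485 genes, and by TPM for 1 (Kcnj2). It was lowest for Atp1b2 on both scales and by TPM for Abcc9 as well. WT replicate 2 was highest by TMM CPM for 1 of the 8 genes (Clcn1), beside 14.9% of those 8485 genes. By TPM it was highest for 4 (Scn4a, Clcn1, Atp1b1 and Atp1b2). Shares over all genes were not determined by TPM, so the counts by TPM have no background. The summed fibroblast markers were highest in WT replicate 3 at 3054 CPM and lowest in WT replicate 1 at 943 CPM. Their part in the levels of the 8 genes was not tested.

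The genes whose pattern over the 6 mice was most like that of each of the 8 were found by the root mean square difference of centred log2 (CPM + 1) values. The closest gene was Cisd3 for Abcc9, at a difference of 0.017 on the log2 scale, where the median over the 8485 genes was 0.156. The next gene was Abhd5, at 0.024. Scn4a was closest to Mroh1 (0.023), Atp1b1 to Ankrd13c (0.020), Clcn1 to Zfp865 (0.026) and Atp1b2 to Tcf12 (0.030). Kcnj11 was closest to Irs1, which encodes insulin receptor substrate 1 (0.062), and Kcna7 to Mb21d2 (0.057). Kcnj2, the most variable of the 8, had no neighbour nearer than Sox13 (0.118), where the median for it was 0.351. These are descriptions over 6 mice, in which all genes of a mouse come from the same library, and each pattern includes the difference between replicates as much as that between groups. The smallest of 8485 differences lies below their median for any gene, so the median gives only the scale. The root mean square of a gene's own centred values was 0.104 for Abcc9 and 0.340 for Kcnj2. Over the 8 genes these values did not follow the order of the distances. Scn4a (0.088) and Atp1b1 (0.074) had smaller values than Abcc9 but larger distances.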

How the data were processed

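Reads of 75 bases were aligned to mm10 with STAR by the authors, who deposited estimated counts per gene, not normalized, for 6 Sol libraries. The counting tool, annotation and strand setting are not given in the sources used here. The authors also deposited DESeq2 log2 fold changes with p-values, which were not used.

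Estimated counts were rounded and tested with edgeR 4.0.16 in R 4.3.3 (TMM, filterByExpr by genotype, quasi-likelihood test, Benjamini-Hochberg adjustment over 12828 genes, threshold 0.05). DESeq2 1.42.0 and limma 3.58.1 (voom), other scalings, no filter, a replicate block and leaving out each mouse were alternatives. Single values were compared by 2-sided exact permutation over the 20 assignments of mice. TPM used the longest protein-coding transcript of GENCODE vM21, with coordinates in GRCm38. Totals of 8940206 to 13798059 counts put 3 counts at 0.217 to 0.362 CPM, which covers counting error only. The edgeR step was tested on simulated data.

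The 8 genes, the other lists and the alternatives were chosen with earlier results of these data known. Genes named were the 8 genes, Kdm1a, myosins, some other marker genes and partners of the 8. Also named were the up to 4 genes of lowest p in each direction of the wider list. From the 2 nearest patterns per gene the nearest was named, with both for Abcc9. Some ion transport genes are not reported here and are not counted in the wider list.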

Additional observations from a re-analysis of the deposited data

How the results depend on the processing

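None of the 8 genes and none of the 33 other ion transport genes passed the adjusted threshold under any of the 14 alternatives. The 8 genes kept the sign of their fold change in 101 of 112 comparisons with an alternative and the named genes of the wider list in 145 of 154. The number of all genes called was 2, against 42 with DESeq2, 11 without a filter on low counts and 1 with the replicate block, and 1 to 3 when a mouse was left out. Kdm1a, at a log2 fold change of -1.30 to -1.17 with a mouse left out, had an adjusted p of 0.111 to 0.209 without WT replicate 2 or without any single LSD1-mKO mouse, and 0.299 with the replicate block. Replicate numbers did not pair the mice (correlations of deviations -0.352, -0.107 and -0.150), and with the replicate block 0 of the 8 genes passed, as before. By unadjusted p under 0.05, 0 to 2 of the 8 genes passed with a mouse left out (2, Kcnj11 and Abcc9, without WT replicate 1). Of the wider list 1 to 6 passed (6 without WT replicate 1, 5 without LSD1-mKO replicate 1 and 1 without LSD1-mKO replicate 3). With all mice 2 of that list passed, 1 with DESeq2 and 5 when low genes were kept. The number over all genes moved as well. Without WT replicate 1, 841 of 13079 genes were higher and 1044 lower at this threshold, against 452 and 369 of 12828 with all mice. It was 451 and 503 of 12984 without LSD1-mKO replicate 1 and 272 and 222 of 13062 without LSD1-mKO replicate 3. The number of the 8 genes without overlap, examined after seeing the data, was 1 to 3 with a mouse left out, where fewer mice make overlap less likely. It was 3 without WT replicate 1 (Kcnj11 and Abcc9 higher, Atp1b2 lower), 2 without WT replicate 3 (Abcc9 higher, Clcn1 lower), and 2 without LSD1-mKO replicate 3 (Kcnj11 and Abcc9 higher). The share of all genes without overlap was not determined with a mouse left out. These counts therefore have no background to be set against and say nothing particular to the 8 genes.

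The reversals were of values near 0 or set by a single mouse, and their cause was not tested. The log2 fold change of Scn4a was -0.0040 with upper quartile scaling and -0.020 with library size alone. That of Kcnj8 was 0.0053 with DESeq2 and with its size factors in edgeR, 0.015 without a filter and 0.0023 with the replicate block. With a mouse left out, the log2 fold change ran from -0.064 to 0.064 for Scn4a, from -0.33 to 0.23 for Kcnj2, from -0.033 to 0.37 for Kcna7, from -0.023 to 0.078 for Atp1b1 and from -0.14 to 0.067 for Atp1b2. It ran from -0.34 to 0.087 for Kcnj12, from -0.081 to 0.12 for Kcnj8 and from -0.028 to 0.12 for Fxyd1. The difference in log2 ratio, LSD1-mKO minus WT, ran from -0.20 to 0.094 for Atp1b2 to Atp1b1, from -0.17 to -0.032 for Clcn1 to Scn4a and from -0.020 to 0.22 for Kcnj11 to Abcc9.

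With 3 mice per group, the 95% interval of the fold change differed by gene. Among the 8 genes its lowest limit was 0.629 (Kcnj2) and its highest 1.54 (Kcna7). Fold changes within the interval of a gene were not excluded for that gene. The smallest difference detectable with 3 mice per group was not determined.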
